A study of Mus musculus with 30 samples.

Results

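Cytochrome P450 transcripts of families 1 to 4 were followed through the liver and 3 striated muscles of mice without myotubularin. The members were every gene of the deposited count table whose symbol is Cyp, a family number from 1 to 4, a subfamily letter and a gene number. Cyp2e1, Cyp1a2 and Cyp2f2 were left out by the rule. This gave 72 of the 36103 genes in the table, with 15 members in Cyp2c, 9 each in Cyp3a and Cyp4f, 8 in Cyp2d, and 7 each in Cyp2j and Cyp4a. The rule reads only symbols, and the set was proposed with earlier results of these data known.

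P450 enzymes are haem proteins of the endoplasmic reticulum that insert oxygen into their substrates with electrons from P450 reductase (Por). In liver, families 1 to 3 clear drugs, pollutants and steroids, and family 4 hydroxylates fatty acids and eicosanoids at the chain end. Several members are switched on through ligand sensors, namely the aryl hydrocarbon receptor (AhR) for Cyp1, CAR and PXR for Cyp2b, Cyp2c and Cyp3a, and PPARalpha for Cyp4a. Others differ between male and female mouse liver through the rhythm of growth hormone.

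RNA had been sequenced at 5 weeks of age from mice with a constitutive knockout of Mtm1 (Mtm1-/y) and from WT littermates. Mtm1 encodes myotubularin, a phosphatase of membrane phosphoinositides, and its loss causes a congenital myopathy. All mice were males of a pure 129Pas background, and the whole frozen tissue was used. There were 3 WT and 4 Mtm1-/y livers, 4 and 4 gastrocnemius muscles, 4 and 3 diaphragms (the Mtm1-/y diaphragms are numbered 1, 2 and 4), and 4 and 4 hearts, or 30 libraries in all. No agent is named for any group. The study's methods count as many mice in each group as there are libraries. No source says that a number marks the same mouse in different tissues.

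Library totals lay between 24873817 and 44289343 counts. Mtm1 itself was at 12.9 to 31.1 CPM (counts scaled to 1 common library total, without further factors) in WT libraries and at 3.28 to 6.09 CPM in Mtm1-/y libraries. A list of 21 hepatocyte transcripts without any P450, albumin among them, summed to 177531 to 212060 CPM in the livers. The same list reached 49994, 31497 and 38506 CPM in WT diaphragms 1, 2 and 4 and 61820 CPM in Mtm1-/y diaphragm 2, against 608, 4449 and 1122 CPM in WT diaphragm 3 and Mtm1-/y diaphragms 1 and 4. It lay between 6.16 and 181 CPM in gastrocnemius and heart. Skeletal muscle and cardiac markers were high in their own tissues in every library. Because these are bulk samples, fewer cells of a type and less RNA per cell cannot be told apart.

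The members lie in clusters of near copies, and this bears on how reads could be assigned. The Cyp2c genes span chr19:39007019-44029208 and the Cyp3a genes chr5:137892932-146113287 (mm10). Of all 50-base stretches of their annotated transcripts, 98.6% in Cyp3a41a and 93.5% in Cyp3a41b also occur in another gene. The share was 60.3% in Cyp2c40, 54.3% in Cyp2c69, 49.4% in Cyp4a12b, 48.9% in Cyp4a12a, 38.0% in Cyp2a4 and 37.0% in Cyp2a5. Only uniquely aligned reads had been counted, so the levels of these genes are uncertain. In 19 members the share was over 25%, and 8 members shared no such stretch.

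The likeness extends to the sequence before the start of transcription, which was found in RefSeq (GRCm38.p6) for 58 of the 72 members. Starts here are those of RefSeq. By the annotation used for exon lengths, some genes start earlier. The stretches shown for Cyp2a4, Cyp2a5, Cyp2c70, Cyp3a11 and Cyp1a1 then lie partly or wholly inside the gene. So do the letters marked in Cyp3a11 and Cyp1a1. Cyp2a4, a steroid hydroxylase that is higher in female liver, and Cyp2a5, a coumarin hydroxylase, matched at 245 of 249 aligned bases. The last 100 aligned bases are shown because the pair differed there only at 2 positions, in capitals. Cyp2a4 is at chr7:26307092-26307191 and Cyp2a5 at chr7:26835238-26835337, both on the plus strand.
Cyp2a4: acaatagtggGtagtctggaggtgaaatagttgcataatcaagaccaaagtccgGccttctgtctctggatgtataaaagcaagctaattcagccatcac
Cyp2a5: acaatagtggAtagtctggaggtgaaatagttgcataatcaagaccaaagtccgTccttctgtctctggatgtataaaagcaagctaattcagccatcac

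Cyp3a44 and Cyp3a41a, steroid hydroxylases of the female-biased list, matched at 236 of 250 bases. Their last 100 bases before the start differ at 6 positions, in capitals. The pair was counted at different levels, as described with the livers. However, 98.6% of the 50-base stretches of Cyp3a41a and 26.5% of those of Cyp3a44 occur in another gene. Their levels can therefore not be compared. The sequences shown lie at chr5:145805875-145805974 and chr5:145720137-145720236 on the minus strand.
Cyp3a44: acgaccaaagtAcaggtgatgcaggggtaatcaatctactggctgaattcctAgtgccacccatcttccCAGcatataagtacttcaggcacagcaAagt
Cyp3a41a: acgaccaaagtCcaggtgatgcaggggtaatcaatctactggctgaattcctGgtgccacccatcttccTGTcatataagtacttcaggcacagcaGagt

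Short motifs were searched on both strands in the 250 bases before each start. CAAAGTCCA, a core site of the hepatocyte factor HNF4A, occurred in 10 of the 58 members (17.2%) and in 0.451% of 27025 genes. Those 10 were 6 Cyp2c genes and 4 Cyp3a genes, of which several are near copies and not independent. TATAAA occurred in 41.4% of members and 14.3% of all genes. Stretches of 60 bases around CAAAGTCCA, in capitals, are shown for 2 abundant liver members and for a female-biased pair whose stretches are identical. Cyp3a11 is at chr5:145879930-145879989, Cyp2c70 at chr19:40187317-40187376, Cyp2c40 at chr19:39812826-39812885 and Cyp2c69 at chr19:39886811-39886870, all on the minus strand.
Cyp3a11: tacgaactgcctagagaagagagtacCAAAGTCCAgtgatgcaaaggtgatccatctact
Cyp2c70: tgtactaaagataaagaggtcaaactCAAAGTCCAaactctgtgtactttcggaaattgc
Cyp2c40: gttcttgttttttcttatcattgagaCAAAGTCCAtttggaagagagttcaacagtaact
Cyp2c69: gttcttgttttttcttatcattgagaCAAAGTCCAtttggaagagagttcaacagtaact

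GCGTG, the core that AhR binds, occurred in 19.0% of members and 30.9% of all genes. It is shown in capitals for the AhR target list, Cyp1a1 and Cyp1b1, both of which oxidise polycyclic aromatic hydrocarbons. The stretches are chr9:57697513-57697612 on the plus strand and chr17:79715078-79715177 on the minus strand, where the core reads CACGC on the gene's own strand. A match is a description of these letters and not a shown site.
Cyp1a1: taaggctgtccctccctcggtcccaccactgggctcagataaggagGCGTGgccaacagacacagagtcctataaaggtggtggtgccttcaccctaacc
Cyp1b1: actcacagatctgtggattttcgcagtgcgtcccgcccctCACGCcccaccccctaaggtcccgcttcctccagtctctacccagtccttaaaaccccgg

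In liver the members together took 1.41% to 2.18% of counts in WT and 1.42% to 2.25% in Mtm1-/y mice. Mean WT levels ranged widely. Of the 72 members, 23 had a mean above 0 but under 1 CPM, 6 one from 1 to 10 CPM and 14 one from 10 to 100 CPM. A further 23 lay above these and below the 3 most abundant, Cyp3a11, Cyp2c29 and Cyp2d9, and 3 were at 0. Cyp2j11 had no count in any of the 7 livers and 9 more members had 1 to 9 counts over all of them.

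Levels per kilobase of annotated exon give only a rough order of genes. The length covers every annotated transcript of a gene, 5093 bases for Cyp3a11 and 3061 for Cyp2c29. Near copies can also lose reads, and the share of 50-base stretches found elsewhere was 35.8% in Cyp2d10, 21.8% in Cyp2d9 and 0% in Cyp2c70. On this scale Cyp2c29, an epoxygenase, led in WT liver with 1076 ± 432 CPM per kb (SD, n = 3). Cyp3a11, the main Cyp3a drug hydroxylase, followed with 687 ± 294 CPM per kb, and their ranges overlapped. Next came Cyp2c70, which makes muricholic acids, at 451 ± 96.9, Cyp2d10 at 415 ± 29.8, Cyp2d9 at 402 ± 88.3 and Cyp2d26 at 388 ± 35.5 CPM per kb. Each of these neighbours overlapped in range, and the first gap in the order lay between Cyp2d26 and the epoxygenase Cyp2j5, at 307 ± 7.87 CPM per kb.

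Some members were steady and others varied. Cyp2j5 stayed between 708 and 741 CPM in the 3 WT livers, and Cyp4v3, a fatty acid hydroxylase, between 317 and 339 CPM. By contrast, Cyp3a11 was at 2239, 3099 and 5157 CPM in WT livers 1 to 3 and at 2178, 4760, 4765 and 2823 CPM in Mtm1-/y livers 1 to 4. Cyp2c29 was at 2367, 2706 and 4809 CPM and at 2567, 3867, 5555 and 3681 CPM. WT liver 3 was the highest WT liver for both, and the genotypes overlapped fully.

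**Figure D1:**
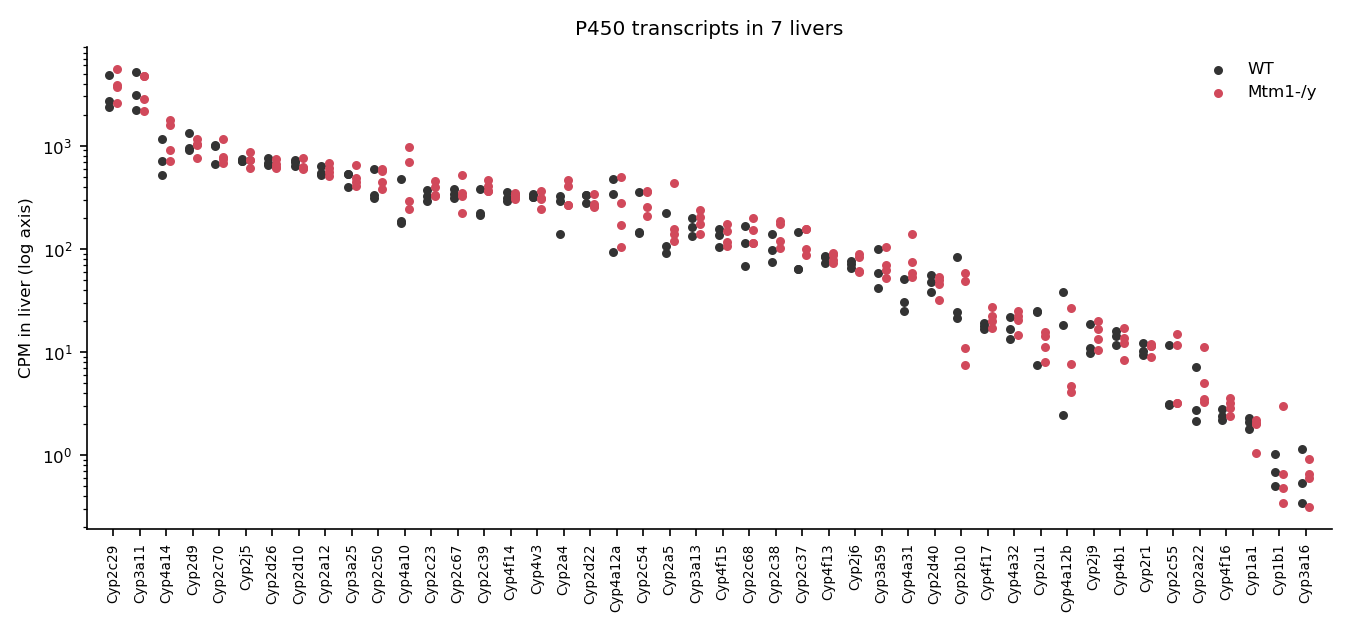
Levels in CPM (log axis) of the members with at least 10 counts in each of the 7 livers, ordered by their mean, one point per liver, WT dark and Mtm1-/y red. Levels ran from 0.316 CPM for Cyp3a16 to 5555 CPM for Cyp2c29, and the genotypes overlapped for nearly every member.

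The first comparison asked whether loss of myotubularin changed these transcripts in liver. Calls required both an absolute log2 fold change over 1 and, in edgeR's quasi-likelihood test, a Benjamini-Hochberg adjusted p below 0.05 over all genes tested. No member was called among the 55 that passed the count filter, and 0% of the 14305 genes tested were called. Mtm1 itself, at 32.2% of WT in Mtm1-/y livers, had a log2 fold change of -1.60 ± 0.23 and was not called either (edgeR, adjusted p = 0.37), so this test missed a known change of that size. At an unadjusted p under 0.05 there were 3 members, against 4.24% of all genes, and DESeq2 also called 0 members. The median log2 fold change was 0.10 over the members and 0.0055 over all genes, with a median SE of 0.30 for a member.

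Among the named members, the PPARalpha targets lay above 0. Cyp4a31 was at 25.2, 30.7 and 51.0 CPM in WT and at 52.7, 140, 74.2 and 57.8 CPM in Mtm1-/y livers, without overlap. Its log2 fold change was 1.23 ± 0.41 (SE, edgeR, adjusted p = 0.97). Cyp4a10, a fatty acid omega-hydroxylase, was at 185, 178 and 471 CPM in WT and at 245, 976, 293 and 697 CPM in Mtm1-/y livers, and Mtm1-/y livers 2 and 4 alone exceeded every WT liver. For Cyp4a10 the log2 fold change was 1.03 ± 0.57.

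Cyp4a14, of the same function, was at 514, 703 and 1168 CPM in WT and at 713, 1778, 900 and 1573 CPM in Mtm1-/y livers, with a log2 fold change of 0.68 ± 0.40. Cyp4a32 was at 13.4, 16.7 and 21.9 CPM and at 14.7, 24.8, 20.4 and 22.2 CPM. Both overlapped between genotypes. None of the 4 listed PPARalpha targets passed the test, and their median log2 fold change was 0.86. Of their 50-base stretches, Cyp4a32 shares 43.8%, Cyp4a10 29.8%, Cyp4a31 20.6% and Cyp4a14 0.24% with other genes. Cyp4a32 and Cyp4a31 share most with Cyp4a10, so the values of the list are not independent.

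Members of Cyp2c and Cyp4f came next by unadjusted p. Cyp2c39, a retinoic acid hydroxylase, was at 212, 224 and 382 CPM in WT and at 361, 469, 360 and 408 CPM in Mtm1-/y livers, and WT liver 3 overlapped the Mtm1-/y range. Its log2 fold change was 0.59 ± 0.24 (edgeR, adjusted p = 0.97). Cyp2c38 was at 75.1, 96.9 and 139 CPM in WT and at 118, 186, 103 and 176 CPM in Mtm1-/y livers, with a log2 fold change of 0.53 ± 0.28. Cyp4f17 was at 16.6, 17.8 and 19.2 CPM and at 16.9, 27.3, 22.3 and 19.9 CPM, with 0.32 ± 0.18. Both overlapped.

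The CAR and PXR target list had 7 members, all of which passed the filter and none the test, with a median log2 fold change of 0.30. Cyp2b10, the classic CAR target, varied most, with 21.2, 24.2 and 83.9 CPM in WT and 7.49, 58.1, 49.0 and 10.8 CPM in Mtm1-/y livers. Its highest and lowest livers differed 11.2-fold. Cyp2c55, an epoxygenase, was at 3.07, 3.13 and 11.7 CPM in WT and at 3.23, 11.6, 14.9 and 3.18 CPM in Mtm1-/y livers. WT liver 3 and Mtm1-/y livers 2 and 3 were high for both of these genes. Of the other epoxygenases on this list, Cyp2c50 was at 309, 334 and 600 CPM in WT and at 383, 564, 596 and 448 CPM in Mtm1-/y livers. Cyp2c54 was at 142, 144 and 355 CPM and at 207, 359, 363 and 254 CPM. Cyp2c37 was at 63.7, 63.7 and 146 CPM and at 99.8, 154, 156 and 87.8 CPM. All 7 members of the list were higher in WT liver 3 than in the other 2 WT livers.

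The AhR targets were low. Cyp1a1 was at 1.80, 2.30 and 2.07 CPM in WT and at 2.04, 2.20, 2.02 and 1.05 CPM in Mtm1-/y livers. Cyp1b1, which acts mainly outside the liver, was at 0.688, 0.500 and 1.04 CPM and at 0.482, 0.344, 2.97 and 0.656 CPM, with Mtm1-/y liver 3 above the rest. The genotypes overlapped for both, and the median log2 fold change of the list was 0.25.

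The most abundant members of the other subfamilies differed little between genotypes. Cyp2c70 was at 1016, 672 and 991 CPM in WT and at 785, 686, 1150 and 746 CPM in Mtm1-/y livers. Cyp2d26 ranged from 613 to 767 CPM, Cyp2a12 from 507 to 685 CPM, Cyp3a25 from 397 to 646 CPM, and Cyp2j6 from 60.1 to 88.6 CPM over all 7 livers. Cyp4f14, which inactivates leukotrienes, ranged from 289 to 354 CPM and Cyp4f15 from 103 to 175 CPM. Each had a log2 fold change between -0.05 and 0.10. Cyp2r1 ranged from 8.97 to 12.2 CPM and Cyp2s1 from 0.206 to 1.83 CPM. Cyp2u1 was at 25.2, 24.6 and 7.55 CPM in WT and at 14.2, 11.3, 7.98 and 15.8 CPM in Mtm1-/y livers, with a log2 fold change of -0.59 ± 0.38. Cyp2g1, an olfactory P450, did not exceed 2.13 CPM, Cyp2b19 did not exceed 0.241 CPM, and Cyp4x1 had reads only in WT liver 3, at 0.0370 CPM.

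**Figure D2:**
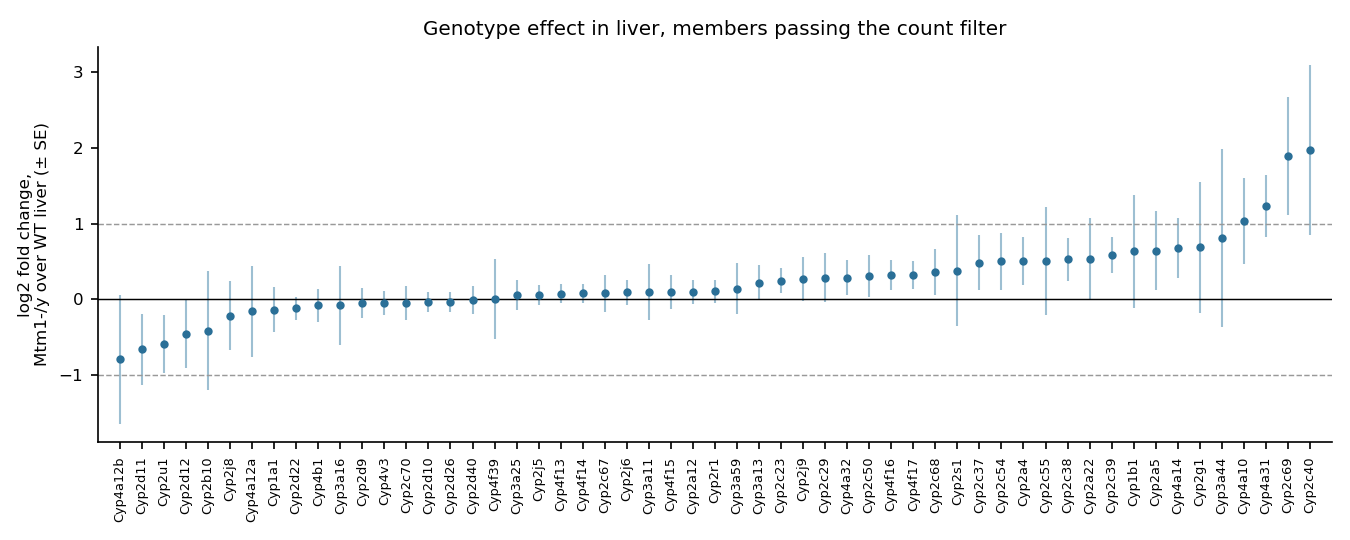
Log2 fold change of Mtm1-/y over WT liver with its SE from edgeR for the 55 members that passed the count filter, in ascending order, with dashed lines at the call threshold of 1. The estimates ran from -0.79 for Cyp4a12b to 1.97 for Cyp2c40, and no member was called.

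Members varied more between livers than most genes. Among genes with at least 10 counts in every liver, the highest liver exceeded the lowest more than 4-fold in 9 of 46 members (19.6%) and in 4.83% of 12808 genes. The median of this fold was 2.14 for members and 1.55 for all genes. Among these 46 members Cyp4a12b led with 15.5-fold, followed by Cyp2b10 with 11.2-fold and Cyp1b1 with 8.62-fold. Cyp2c40 and Cyp2c69 missed the count minimum, with 9 and 8 counts in their lowest livers, and differed 120-fold and 27.0-fold.

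The sex-biased members varied within each genotype although every mouse was male. Cyp4a12a, a male-biased arachidonic acid hydroxylase, was at 343, 473 and 92.3 CPM in WT livers 1 to 3 and at 105, 169, 276 and 493 CPM in Mtm1-/y livers 1 to 4. Its near copy Cyp4a12b was at 18.2, 37.9 and 2.44 CPM and at 4.67, 4.06, 7.61 and 26.7 CPM. For both, WT liver 2 and Mtm1-/y liver 4 held the highest level of their genotype.

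Several female-biased members were lowest in those same livers. Cyp2c40 was at 10.6, 0.300 and 3.55 CPM in WT and at 17.8, 35.9, 19.2 and 1.07 CPM in Mtm1-/y livers. Cyp3a44 was at 1.48, 0.267 and 10.6 CPM and at 7.60, 15.3, 4.89 and 0.486 CPM. In WT liver 2 and Mtm1-/y liver 4, Cyp2c40, Cyp2c69, Cyp3a44 and Cyp2a4 were each at the lowest level of their genotype. Cyp2c69 was at 1.56, 0.267 and 0.999 CPM in WT and at 0.753 to 7.19 CPM in Mtm1-/y livers. Cyp2a4 was far higher and spread less, at 289, 140 and 325 CPM in WT and 460, 405, 268 and 266 CPM in Mtm1-/y livers. Cyp3a16, from 0.316 to 1.15 CPM, was lowest among WT in liver 1 and not in liver 2. Cyp3a41a did not exceed 0.310 CPM and was at 0 in WT livers 2 and 3 and Mtm1-/y liver 4. Cyp3a41b did not exceed 0.106 CPM and was at 0 in WT liver 3 and Mtm1-/y liver 4. Of the 50-base stretches of these 2 genes, 98.6% and 93.5% occur in another gene, so their levels are uncertain.

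None of these passed the genotype test. The log2 fold change was 1.97 ± 1.12 for Cyp2c40 and 1.90 ± 0.78 for Cyp2c69 (edgeR, adjusted p = 0.97 for each), and -0.79 for Cyp4a12b. All 3 male-biased members lay below 0 and 4 of the 5 tested female-biased members above 0. The median log2 fold change was -0.16 for the male-biased and 0.81 for the female-biased list. Cyp2d9, a male-biased testosterone hydroxylase, was at 950, 1339 and 916 CPM in WT and at 755, 1172, 1021 and 1033 CPM in Mtm1-/y livers, with a log2 fold change of -0.05, and was highest among Mtm1-/y mice in liver 2, not in liver 4. Cyp2b9 had 1 count in all libraries, and Cyp2b13 of the female-biased list was not analysed here.

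**Figure D3:**
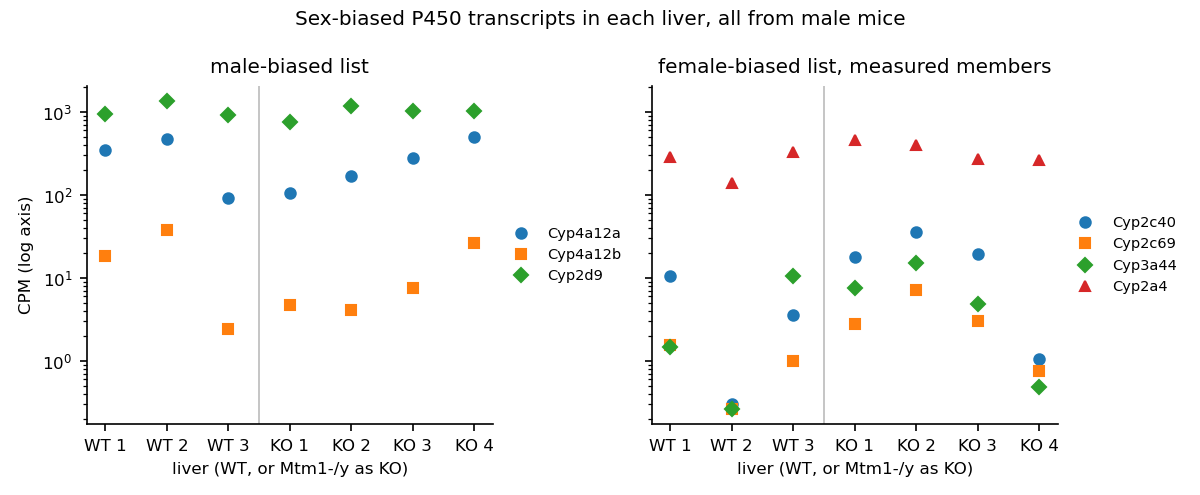
Levels in CPM (log axis) of the male-biased list (left) and of 4 measured female-biased members (right) in each of the 7 livers, WT to the left of the line and Mtm1-/y (KO) to the right. WT 2 and KO 4 are high for Cyp4a12a and Cyp4a12b and low for Cyp2c40, Cyp2c69 and Cyp3a44.

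Growth hormone signalling genes, which control that sex bias, were 10 in number, and none was called in liver. Of these, 2 had an unadjusted p under 0.05 in edgeR, where 4.24% of all genes did. Bcl6, a repressor in this pathway, was at 113, 79.0 and 111 CPM in WT and at 93.0, 23.5, 29.1 and 20.4 CPM in Mtm1-/y livers, with a log2 fold change of -1.27 ± 0.48 (edgeR, adjusted p = 0.97). Cish, a feedback inhibitor, was at 2.65, 2.23 and 6.85 CPM and at 3.63, 5.54, 46.6 and 13.6 CPM, and its log2 fold change was 2.20 ± 0.90.

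Electron donors, haem synthesis, nuclear receptors and other regulators formed a list of 25, of which 24 were tested and none called in liver. At an unadjusted p under 0.05 in edgeR there were 7, where 4.24% of all genes passed. Cebpb, a liver factor of the acute response, had a log2 fold change of -1.09 ± 0.27 and Foxa2 one of 0.64 ± 0.18 (edgeR, adjusted p = 0.97 for each). Of 23 conjugation and export genes, none was called, and 1 had an unadjusted p under 0.05 in edgeR. Ugt1a1, which conjugates bilirubin, had a log2 fold change of 0.61 ± 0.21 and Ugt2b36 one of 0.25 ± 0.17.

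Outside the liver, some members kept the count relative to hepatocyte markers that they had in liver, and for others it was far higher. The ratio was taken as member counts per hepatocyte-marker count, pooled over all libraries of a tissue, and set against the highest of the 7 livers, for members with at least 10 counts in the tissue. A limit of 10 times was chosen after the values were seen.

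In gastrocnemius 42 members had enough counts, and 18 of them exceeded 10 times the highest liver ratio. The nearest member below the limit was at 3.39 times and the nearest above at 12.7 times. In heart 13 of 36 members exceeded it, with a gap between 2.61 and 29.7 times. In diaphragm only 5 of 56 did, and the values just below and just above were 7.26 and 10.2 times. The diaphragm showed no comparable gap, and the 4 of its 7 libraries with over 10000 CPM of hepatocyte markers set its pooled ratio. Over the other 3 libraries, chosen after seeing the data, 9 of 47 members exceeded the limit. Those 9 were the same 5 (Cyp2s1, Cyp1b1, Cyp4f39, Cyp4f18 and Cyp4f16) and Cyp4b1, Cyp2u1, Cyp4f17 and Cyp1a1, with 9.06 and 10.6 times on either side of the limit.

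**Figure D4:**
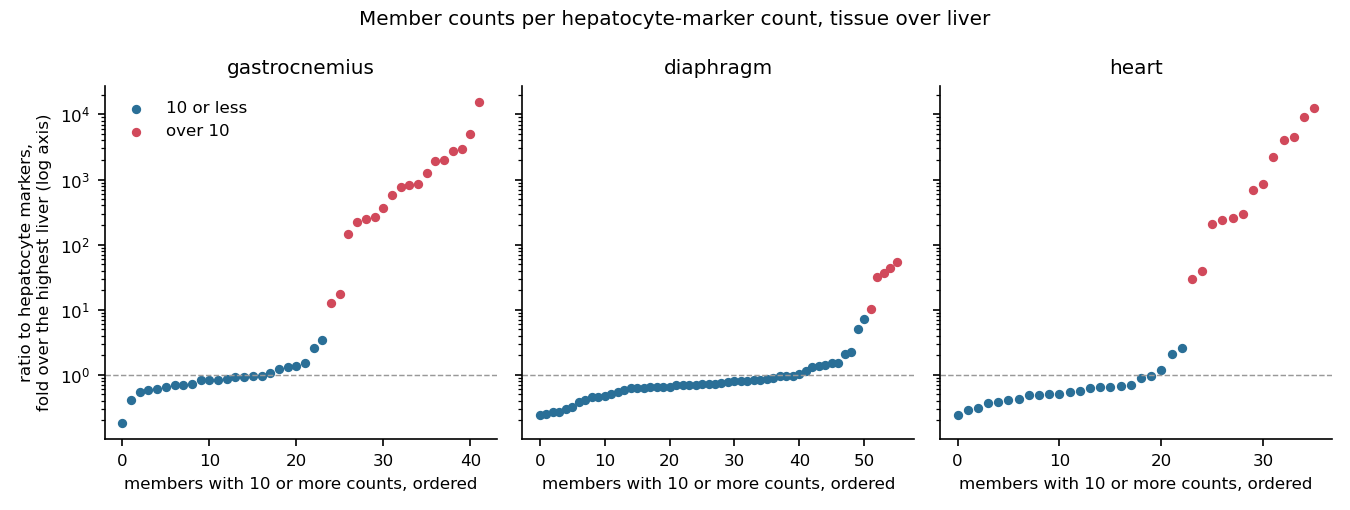
Member counts per hepatocyte-marker count in gastrocnemius, diaphragm and heart, as fold over the highest of the 7 livers (log axis), for members with 10 or more counts in the tissue, in ascending order. A gap separates red points (over 10) from blue ones in gastrocnemius and heart, and the diaphragm has 5 red points.

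The members at or near the liver ratio included the most abundant liver P450s. Cyp3a11 was at 0.70 times the highest liver ratio in gastrocnemius, 0.65 in diaphragm and 0.37 in heart, and Cyp2c29 at 0.65, 0.72 and 0.42 times. In heart both lay just under the lowest liver ratio, at 0.99 and 0.95 times. There 8 of 36 members were under the range of the livers, but with albumin alone as the denominator 1 was. The levels of Cyp3a11 and Cyp2c29 did not follow the hepatocyte sum in every library. In the hearts, WT 4 had a higher sum than Mtm1-/y 3 and 4 and lower Cyp3a11 and Cyp2c29. Albumin alone was at 3.01 CPM in WT heart 4 and at 27.5 and 35.2 CPM in Mtm1-/y hearts 3 and 4. In the diaphragms Cyp3a11 was at 617, 456, 14.4 and 935 CPM in WT and at 30.5, 1304 and 34.4 CPM in Mtm1-/y libraries, so that WT 3 stood apart from the other WT diaphragms and Mtm1-/y 2 from the other Mtm1-/y diaphragms. Hepatocyte markers were high in WT 1, 2 and 4 and in Mtm1-/y 2 as well, though WT 1 had a higher sum than WT 4. Their part in the P450 levels was not tested.

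The members above the liver ratio were led in heart by Cyp1b1, at 12734 times the highest liver ratio, Cyp2s1, at 9103, Cyp4b1, at 4562, and Cyp4f16, at 3984 times. In gastrocnemius Cyp2b19 led, almost entirely from 1 library described with the genotypes. Cyp4b1, a hydroxylase of medium-chain fatty acids, was at 37.1, 33.3, 37.0 and 31.7 CPM in WT and 41.2, 32.4, 31.8 and 38.9 CPM in Mtm1-/y hearts, against 8.33 to 17.1 CPM in the 7 livers. Cyp1a1 exceeded the limit in gastrocnemius, at 0.617 to 1.85 CPM, and had 7 counts in all 8 hearts. Cyp2d22, the most abundant member in gastrocnemius, was at 12.1 to 19.5 CPM there. Cyp2r1, a vitamin D hydroxylase, was at 39.1 times the liver ratio in heart, but at 0.328 CPM or less.

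WT liver was then compared with each WT muscle by the same test. In fold changes across tissues, edgeR's scaling (TMM) moved values by 0.47 log2 units against plain CPM for the diaphragm and by 0.60 for the heart, in favour of liver, and by 0.0046 for the gastrocnemius.

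Against WT gastrocnemius, 46 of 50 tested members were called higher in liver, where 27.5% of all genes were, and 0 were called lower in edgeR, where 30.8% were. DESeq2 called 1 lower, Cyp2j13, which had no count in any WT liver. At an adjusted p alone edgeR found none lower. Against WT heart, 45 of 49 were called higher, where 24.0% of all genes were, and 2 were called lower, where 30.0% were. Cyp1b1 was 4.24 ± 0.63 and Cyp2s1 3.01 ± 0.75 log2 units higher in heart (edgeR, adjusted p = 0.00028 and 0.0055). Cyp4b1 was higher in heart by 0.72 ± 0.14 log2 units and Cyp4f16 by 0.59 ± 0.16, at adjusted p of 0.0014 and 0.0079, short of the fold threshold, so that 4 were lower by the adjusted p alone, where 39.5% of all genes were. Without scaling factors these 2 passed it as well, making 4 called lower in liver.

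Against WT diaphragm, 43 of 54 were called higher in liver, where 20.1% of all genes were, and 4 were called lower, where 29.8% were. The 4 were Cyp1b1, by 3.73 ± 0.44 log2 units, Cyp2s1, by 3.51 ± 0.54, the leukocyte leukotriene hydroxylase Cyp4f18, by 3.17 ± 0.95, and the skin fatty acid hydroxylase Cyp4f39, by 2.90 ± 0.59 (edgeR, adjusted p = 0.00022, 0.00077, 0.017 and 0.0030). The count called higher fell to 28 without WT liver 2, 21 without WT liver 3 and 23 without WT diaphragm 2. With WT diaphragm 3 as the only diaphragm, chosen after seeing its low hepatocyte sum and assumed to vary like the livers, the counts were 49 higher and 3 lower.

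By genotype, the gastrocnemius gave the one call among members. Of 14 tested, 1 was called, where 6.63% of all genes were (4.84% higher and 1.79% lower), and 4 had an adjusted p under 0.05, where 29.0% of all genes did. Cyp1b1 was at 0.985, 0.251, 0.329 and 0.817 CPM in WT and at 1.85, 2.02, 4.52 and 2.22 CPM in Mtm1-/y muscles. The groups did not overlap, and Mtm1-/y 3 was the highest. The log2 fold change was 1.80 ± 0.44 (edgeR, adjusted p = 0.013), and without Mtm1-/y 3 it was 1.44, still called.

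Markers of other cell types differed in the same muscles. All 6 macrophage markers were called higher in Mtm1-/y gastrocnemius, and their sum rose from 19.6 to 36.0 CPM in WT to 76.0 to 98.6 CPM. Of 6 white adipocyte markers 5 were called higher, with sums of 17.5 to 75.8 CPM in WT and 83.2 to 173 CPM in Mtm1-/y muscles. Of 4 fibroblast markers 2 were higher at the adjusted p alone, and the sums, 1012 to 3099 CPM in WT and 1320 to 4706 CPM in Mtm1-/y, overlapped. All 4 endothelial markers lay below 0 and 2 were lower at the adjusted p alone, with overlapping sums. Skeletal muscle markers summed to 152218 to 169502 CPM in WT and to 113712 to 123464 CPM in Mtm1-/y muscles. The part of these cells in the Cyp1b1 level was not tested.

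The other 3 members with an adjusted p under 0.05 changed less. Cyp2u1, a fatty acid hydroxylase, was at 5.11, 4.77, 4.58 and 4.74 CPM in WT and at 4.29, 4.15, 3.85 and 3.41 CPM in Mtm1-/y muscles, without overlap. It fell by 0.62 on the log2 scale (SE 0.12, edgeR, adjusted p = 0.0035). Cyp4f16 was at 1.68 to 1.85 CPM in WT and 2.70 to 3.95 CPM in Mtm1-/y muscles, with a log2 fold change of 0.50 ± 0.16 (edgeR, adjusted p = 0.041). Its adjusted p was over 0.05 in 7 of 8 fits without 1 library. Cyp4b1 was at 5.67 to 8.19 and 4.48 to 7.62 CPM and fell by 0.51 on the log2 scale (SE 0.17, edgeR, adjusted p = 0.043), and its adjusted p was over 0.05 in 6 of 8 such fits. TMM scaling lowered the Mtm1-/y values by 0.34 log2 units against plain CPM here. With library totals alone, Cyp2u1 and Cyp4b1 were at -0.29 and -0.18 and no longer passed (edgeR, adjusted p = 0.069 and 0.40).

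Mtm1-/y gastrocnemius 3 stood apart in several members. Cyp2b19, a keratinocyte epoxygenase, was at 9.24 CPM there and at 0.0805 CPM or less in the other 7 muscles, and Cyp4f39 was at 4.01 CPM against 0.178 to 0.778 CPM. A list of 8 keratinocyte markers, chosen after these values were seen, summed to 296 CPM in that library, to 31.9 to 38.5 CPM in the other Mtm1-/y muscles and to 8.93 to 11.8 CPM in WT muscles, so that the genotypes did not overlap. Of the 2 markers tested, 1 was called higher. Krt5 in that library was at 127 CPM, against 0.563 CPM or less in the other muscles. The hepatocyte sum of Mtm1-/y 3, 77.9 CPM, was also the highest of the Mtm1-/y muscles, which were otherwise at 6.16 to 18.4 CPM. Without this library 5 members were called, Cyp1b1 higher and Cyp2c29, Cyp2c70, Cyp3a11 and Cyp4a14 lower.

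These 4 lower members are abundant liver P450s at low levels in muscle. Cyp3a11 was at 2.15, 1.29, 2.00 and 0.517 CPM in WT and at 0.590, 0.135, 1.32 and 0.0593 CPM in Mtm1-/y muscles, and the groups overlapped. It had a log2 fold change of -1.83 ± 0.71 (edgeR, adjusted p = 0.079), and with the hepatocyte marker score as a covariate the value was -0.55 (adjusted p = 0.45). Of 19 tested hepatocyte markers 4 were called lower and none higher. DESeq2 called Cyp3a11, Cyp2c39, Cyp2d9 and Cyp4a12a lower beside Cyp1b1 higher.

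Of 16 tested partners and regulators, 1 was called higher and 1 lower in this muscle. At an adjusted p under 0.05 alone, which 29.0% of all genes reached, 7 were higher and 5 lower. Cebpa, an adipocyte and liver factor, was 2.26-fold higher (edgeR, adjusted p = 0.00098) and Ppara was at 0.54 of WT (adjusted p = 0.0011). Of 10 growth hormone signalling genes, 0 were called higher and 2 lower, and by the adjusted p alone 1 was higher and 4 lower, again against 29.0% of all genes. Ghr was at 0.62 and Stat5b at 0.55 of WT (edgeR, adjusted p = 9.5e-05 and 0.00019). Among 11 tested conjugation and export genes, Gstm1 was at 0.73 of WT (edgeR, adjusted p = 0.0029) and Abcg2 was 1.28-fold higher (adjusted p = 0.017).

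In heart no member was called in edgeR among 13 tested, where 0.00656% of all genes were, and 3 had an unadjusted p under 0.05, where 8.88% of all genes did. DESeq2 called 2 higher. Cyp3a11 was at 0.580, 0.0312, 0.0645 and 0.171 CPM in WT and at 2.44, 1.14, 1.35 and 1.09 CPM in Mtm1-/y hearts, without overlap. Its log2 fold change was 2.94 ± 0.65 (edgeR, adjusted p = 0.48), and by DESeq2 2.95 ± 0.66 (adjusted p = 0.0048). Cyp2c29 was at 0.773, 0.0937, 0.0967 and 0.103 CPM and at 2.26, 1.30, 1.94 and 1.24 CPM, with 2.77 ± 0.63 (edgeR, adjusted p = 0.55) and the same value by DESeq2 (adjusted p = 0.0068). Without WT heart 1 edgeR also called Cyp2c29. Hepatocyte markers summed to 76.9, 7.21, 34.7 and 124 CPM in WT and to 181, 101, 68.0 and 68.9 CPM in Mtm1-/y hearts, which overlap. Of 20 tested hepatocyte markers, 18 lay above 0 and 17 had an unadjusted p under 0.05, with a median log2 fold change of 2.13. Albumin was at 25.9, 0.937, 2.55 and 3.01 CPM in WT and at 27.5 CPM or more in each Mtm1-/y heart, without overlap. The part of these markers in the Cyp3a11 and Cyp2c29 values was not tested.

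Cyp1b1 was at 14.7, 9.21, 15.8 and 46.8 CPM in WT and at 6.97, 11.3, 7.69 and 5.02 CPM in Mtm1-/y hearts, so that WT 4 stood above all others and the groups overlapped. The log2 fold change was -1.40 ± 0.46 (edgeR, adjusted p = 0.55). Cyp2s1, a P450 of epithelia, was also highest in WT heart 4, at 19.0 CPM against 1.74 to 8.57 CPM in the other 7. White adipocyte markers summed to 99.6, 34.3, 39.7 and 142 CPM in WT and 13.9, 13.4, 5.39 and 11.3 CPM in Mtm1-/y hearts, and fibroblast markers reached 2359 CPM in WT heart 4 against 1560 CPM or less. Their part was not tested.

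In diaphragm 0 of 49 members were called in edgeR or DESeq2, where 0.0119% of all genes were in edgeR, and 2 had an unadjusted p under 0.05, where 10.8% of all genes did. The median SE was over 1 log2 unit, so most members could not be resolved. It was smaller for members above the liver ratio, at 0.19 for Cyp4f16, 0.25 for Cyp4b1, 0.27 for Cyp2s1 and 0.33 for Cyp1b1. Cyp4f39 was at 2.85, 8.17, 7.55 and 3.35 CPM in WT and at 1.63, 2.25 and 2.40 CPM in Mtm1-/y diaphragms, without overlap, with a log2 fold change of -1.44 ± 0.47 (edgeR, adjusted p = 0.36). Cyp2u1 was likewise lower in each Mtm1-/y diaphragm, at 5.57 to 7.12 CPM against 7.24 to 11.9 CPM, with -0.54 ± 0.21 (edgeR, adjusted p = 0.43).

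The genotype effects in heart and gastrocnemius were compared directly in one fit. Of 22 tested members, 7 differed, where 7.73% of all genes did (1.89% higher and 5.84% lower in heart). Cyp1b1 had a lower effect in heart, by 3.17 ± 0.69 log2 units (edgeR, adjusted p = 0.0061). It remained called in each of the 16 fits without 1 library, with values from -3.49 to -2.53, and with the hepatocyte score as a covariate. In the same contrast all 6 white adipocyte markers and all 6 macrophage markers were called lower too, with medians of -4.25 and -1.46 log2 units, and their part in the Cyp1b1 value was not tested. Cyp3a11, Cyp2d26, Cyp4a14, Cyp2d9, Cyp2j5 and Cyp2a12 had higher effects in heart, by 3.11 to 4.79 log2 units. Among them only Cyp3a11 had passed the count filter within heart or gastrocnemius alone. Cyp2j5, for example, had 1, 0, 2 and 3 counts in WT and 15, 5, 4 and 13 in Mtm1-/y hearts. In this contrast 17 of 21 hepatocyte markers were also called higher, with a median of 4.09 log2 units. With the hepatocyte score as a covariate none of the 6 P450 members was called. The source of this shared change was not tested.

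**Figure D5:**
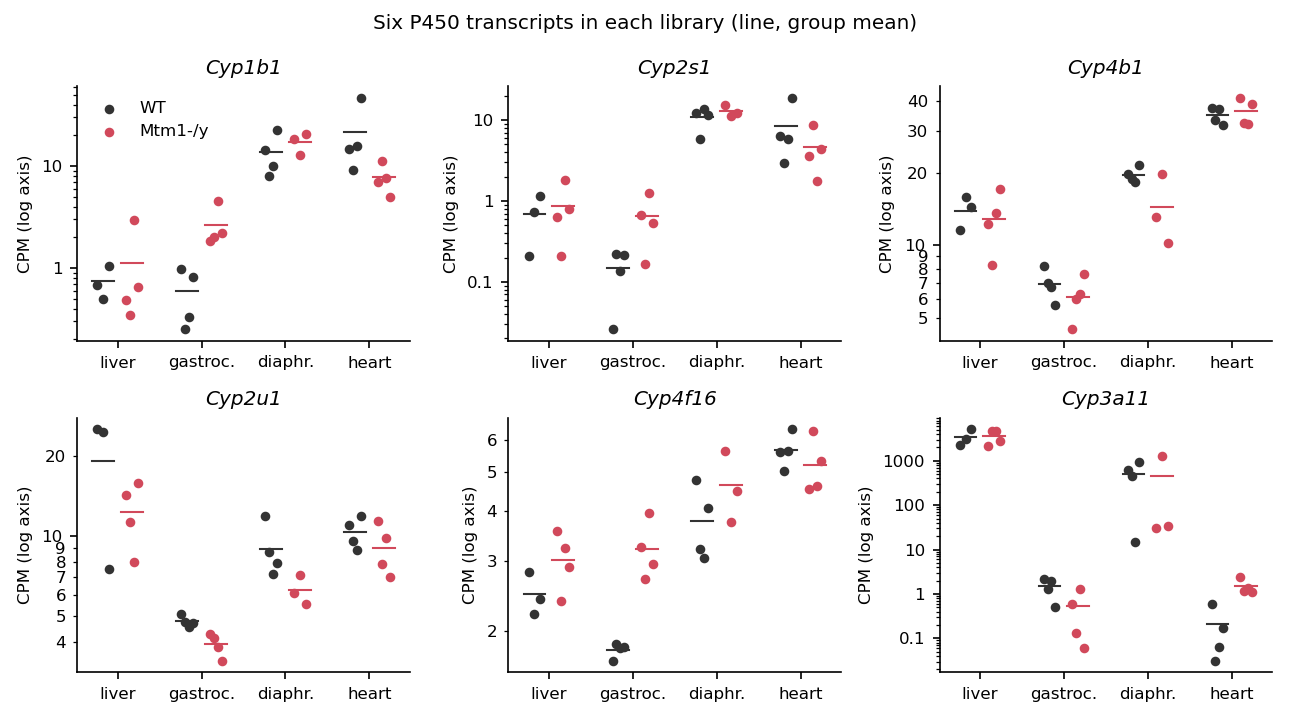
Levels in CPM (log axis) of 6 members in every library of the 4 tissues, WT dark and Mtm1-/y red, with a line at the mean of each group. Cyp1b1 is higher in all 4 Mtm1-/y gastrocnemius muscles than in WT, Cyp4b1 is highest in heart, and Cyp3a11 runs from 0.0312 CPM in a WT heart to 5157 CPM in a WT liver.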

How the data were processed

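The authors sequenced stranded mRNA libraries as single reads, trimmed them (cutadapt 1.10), aligned them to mm10 (STAR 2.5.3a), counted unambiguous, uniquely aligned reads per gene (HTSeq 0.6.1p1) and deposited these raw counts. Near copies can lose reads by this counting. Levels were computed as CPM of each library's total. Each comparison was fitted on all genes, with only the compared groups, by edgeR 4.0.16 (R 4.3.3), with filterByExpr at a count minimum of 10, TMM factors and the quasi-likelihood test. The SE is the log2 fold change over the square root of F. Alternatives were DESeq2 1.42.0, its size factors, no filter, the replicate number as a block and leaving out each library. The fitting scripts were tested on simulated data.

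Values are given for members called or with an adjusted p under 0.05 by genotype, the 8 with the smallest p in liver, the 2 most abundant of each subfamily in WT liver, those higher in a muscle than in liver, and the regulator lists. Of the other lists the 2 genes with the smallest p in liver and in gastrocnemius are named. Further members were named after their values were seen. The members, lists and comparisons were chosen with earlier results of these data known, and the keratinocyte list, the ratio limit and the hepatocyte, albumin and library-total alternatives after seeing the data.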

Additional observations from a re-analysis of the deposited data

Results flagged for a closer look

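Levels were screened for a single library far from the other 3 of its group, by Dixon's ratio of the gap to the group's range, in 201 groups of 4, and 22 passed. Chance alone would pass about 1 in 20 groups.

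Mtm1-/y gastrocnemius 3 was the high library in 8 of these. Cyp2b19 was at 9.24 CPM there, Cyp1b1 at 4.52, Cyp4f39 at 4.01, Cyp4f17 at 4.01, Cyp2c29 at 2.73, Cyp2j5 at 0.481, Cyp2a12 at 0.481 and Cyp2b23 at 0.321 CPM. In the same library keratinocyte markers summed to 296 CPM and hepatocyte markers to 77.9 CPM, and their part was not tested.

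WT diaphragm 3 was the low library for Cyp2d9 at 3.43 CPM, Cyp3a13 at 1.64, Cyp2c38 at 0.503 and Cyp4a32 at 0.0629 CPM. Its hepatocyte markers summed to 608 CPM, against 31497 to 49994 CPM in the other WT diaphragms. Cyp2c40 was high in WT diaphragm 1, at 6.08 CPM, and Cyp3a16 in WT diaphragm 4, at 0.399 CPM.

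Among Mtm1-/y livers, Cyp1b1 was high in liver 3 at 2.97 CPM, Cyp4a12b in liver 4 at 26.7 CPM and Cyp2a5 in liver 2 at 431 CPM. Cyp2r1 was low in liver 1 at 8.97 CPM, and Cyp1a1 in liver 4 at 1.05 CPM. Elsewhere Cyp2j9 was high in WT gastrocnemius 1 at 1.40 CPM, Cyp2c29 in WT heart 1 at 0.773 CPM and Cyp2j6 in Mtm1-/y heart 4 at 9.90 CPM.

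The genotype effect differed between heart and gastrocnemius for 7 members by a test of the difference itself in edgeR. In heart minus gastrocnemius it was -3.17 log2 units for Cyp1b1, 4.79 for Cyp3a11, 4.67 for Cyp2d9, 4.06 for Cyp4a14, 3.95 for Cyp2j5, 3.80 for Cyp2a12 and 3.11 for Cyp2d26. Only Cyp1b1 and Cyp3a11 among them had passed the count filter within heart or gastrocnemius alone, and the others had few counts in both tissues. With the hepatocyte score as a covariate, Cyp1b1 alone remained called. Leaving out 1 library at a time lost the call of Cyp2a12 in 14 and of Cyp2j5 in 10 of 16 fits. In the same contrast 17 of 21 hepatocyte markers were called higher, and the source of that change was not tested.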

How the results depend on the processing

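Of 169 recomputed counts of called members, 147 stayed within 1.5 times the reported count. Counts of 0 that stayed at 0 are among these. Of 385 recomputed results for single members, 311 were scored as the same, 68 as weaker and 6 as stronger. In gastrocnemius the 1 member called became 4 by adjusted p alone, 3 with no filter, 5 with DESeq2 and 7 with the replicate block, and 1 to 5 without 1 library. In heart, 0 became 2 with DESeq2, and 0 to 1 without 1 library. Members lower in liver than in gastrocnemius went from 0 to 1 with no filter or DESeq2, and those lower than in heart from 2 to 4 by adjusted p alone or by library totals. Members higher in liver than in diaphragm went from 43 to 16 with the replicate block and to 21 to 45 without 1 library. The 7 whose genotype effect differed between heart and gastrocnemius became 12 with no filter, 15 with DESeq2 and 1 with the hepatocyte covariate, and 5 to 9 without 1 library. Members over 10 times the liver ratio in diaphragm went from 5 to 9 over the 3 libraries low in hepatocyte markers. The cause was not tested. No direction reversed. The replicate numbers were not shown to pair samples: same-numbered samples' deviations correlated at -0.77 to 0.60 over 23 pairs, of which 5 exceeded 0.1. Depth limits the members under 1 CPM.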
